A study of Mus musculus with 4 samples.

Results

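Heat-shock-high CD8 T cells were the CD8 T cells of B16 melanoma that carried large amounts of RNA from Hspa1a and Hspa1b, the stress-inducible HSP70 genes. A cell was a member when it had at least 600 detected genes, under 30% mitochondrial UMIs, at least 1 UMI of Cd3e and of Cd8a plus Cd8b1, no UMI of Cd4 or Foxp3, and at least 10 UMIs of Hspa1a plus Hspa1b. UMIs (unique molecular identifiers) count distinct RNA molecules. Cells with 2 or more UMIs of Gzmf plus Spp1, or of Mki67 plus Top2a, were left out, so that dividing cells and a small cytotoxic subset did not enter. There were 311 such cells among 7979 CD8 T cells that met the other conditions and 20170 cells in all, 210 in the wild-type (WT) library and 101 in the VISTA-KO library. The comparison cells, called heat-shock-zero, met the same conditions with 0 UMIs of both genes and numbered 3399 in WT and 2957 in VISTA-KO.

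The study asked how VISTA, an immune checkpoint protein encoded by Vsir, acts inside T cells. The VISTA-KO mice were Vsir fl/fl with CD4-Cre and the WT mice were Vsir fl/fl littermates without Cre, all on a C57BL/6 background and 6 to 8 weeks old. The Cd4 promoter is active in developing thymocytes, so the deletion reaches CD8 as well as CD4 T cells. Both groups carried B16 tumors and received a TRP2 peptide vaccine on day 3 of tumor growth and antibody against CTLA-4 on days 4 and 8. Tumor-infiltrating lymphocytes (TILs) were isolated on day 18, which a legend counts from treatment. Each genotype was 1 pool of 5 to 6 mice by the methods, or 6 to 8 tumors by a legend, and gave 1 gene expression library and 1 T cell receptor library. With no replicate pools, the spread between mice is unknown, no difference was tested, and every interval below is a 95% interval that covers counting error only. Tumors were digested for 20 minutes at 37 °C before CD4 and CD8 T cells were enriched and sorted, and whether the heat shock RNA was made in the tumor or during this preparation was not tested. The WT library held 72098984 UMIs in 10337 barcodes and the VISTA-KO library 59916814 UMIs in 10085 barcodes. The libraries shared 145 cell barcodes, which belonged to 2 WT and 0 VISTA-KO heat-shock-high cells.

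The heat shock response is the ancient program by which cells answer misfolded protein. The transcription factor HSF1, held inactive in resting cells, binds inverted repeats of the letters GAA before its target genes and drives the HSP70 and HSP90 chaperones, the J-domain proteins that hand clients to HSP70, and the exchange factors that release them. Immediate-early genes such as Jun and Fos, subunits of the transcription factor AP-1, are another rapid program that many signals turn on, T cell receptor signals among them.

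The start regions of 5 heat shock genes are shown because they hold the letters that HSF1 is known to read. They come from RefSeq on GRCm38.p6, run 5′ to 3′ on the strand of the gene and end at the base before the annotated start site. Capitals mark GAANNTTC or TTCNNGAA, where N is any base. Both motifs read the same on the opposite strand, and matches may overlap. Hspa1a lies on the minus strand at chr17:34972157-34972276 and Hspa1b on the minus strand at chr17:34959239-34959358.
Hspa1a: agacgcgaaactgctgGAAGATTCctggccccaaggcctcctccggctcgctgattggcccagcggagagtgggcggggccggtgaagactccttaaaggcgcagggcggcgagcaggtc
Hspa1b: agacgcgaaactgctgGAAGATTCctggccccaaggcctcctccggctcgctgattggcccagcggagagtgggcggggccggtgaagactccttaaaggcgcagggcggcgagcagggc
Over the 250 bases before the start site these regions were identical at 247 positions (98.8%). The genes are near-identical copies, so reads that fit both may be lost or misplaced, and their UMIs were used as a sum. Hspb1 lies on the plus strand at chr5:135887799-135887918, Hsph1 on the minus strand at chr5:149636316-149636435 and Hspe1 on the plus strand at chr1:55088028-55088147.
Hspb1: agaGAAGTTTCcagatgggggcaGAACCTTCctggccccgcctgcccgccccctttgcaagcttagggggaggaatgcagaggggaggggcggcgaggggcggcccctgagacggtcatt
Hsph1: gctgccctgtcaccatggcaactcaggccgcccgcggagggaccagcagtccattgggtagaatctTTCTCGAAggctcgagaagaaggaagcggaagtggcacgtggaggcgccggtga
Hspe1: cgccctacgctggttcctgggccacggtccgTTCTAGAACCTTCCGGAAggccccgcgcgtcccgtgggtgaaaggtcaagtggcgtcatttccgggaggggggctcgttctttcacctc
The 3 matches of Hspe1 overlap and lie in the window that Hspd1 shares on the opposite strand. Of all 32851 promoters in the table, 12.8% held either motif within 250 bases before the start, and by gene the share was 14.5% of 27025. Of the 29 genes on the heat shock list with an entry, 12 (41.4%) held it. A match is a description of the letters and not of binding.

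Hspa1a plus Hspa1b chose the members, and their levels are a description. In the WT library the heat-shock-high cells held from 10 to 100 UMIs of the pair with a median of 15, and in the VISTA-KO library from 10 to 112 with a median of 16. A larger share of the VISTA-KO members lay in the upper range. Of the WT members 34 (16.2%, 11.5 to 21.9) had 30 or more UMIs, and of the VISTA-KO members 32 (31.7%, 22.8 to 41.7). WT members held 1801 CPM of Hspa1a and VISTA-KO members 2552 CPM, and Hspa1b stood at 1215 and 1589 CPM, with both at 0 in the controls by the rule. Both genes were detected in the same cell in 196 WT and 92 VISTA-KO members, and Hspa1b gave 40.3% and 38.4% of the UMIs of the pair. The threshold did not fall in a gap. In WT, 57 cells had 8 or 9 UMIs and 51 had 10 or 11. Dnajb1, the HSP40 partner of HSP70, stood at 395 CPM (UMIs per 1000000 UMIs) just below the threshold and at 549 CPM just above it. In VISTA-KO, 36 cells lay just below and 18 just above, and Dnajb1 stood at 552 and 544 CPM.

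The rule itself asked for Cd3e and for Cd8a or Cd8b1 in members and controls alike, so their presence is no result. Cd3g, a signaling chain of the T cell receptor complex that the rule did not use, was detected in 205 of the 209 WT and all 101 VISTA-KO members that could be matched for depth, and in 208 and 101 of their controls. The median member held 5828.5 UMIs in WT and 5784 in VISTA-KO, more than the 4364 and 4866 of all heat-shock-zero cells. Each member was therefore paired with the heat-shock-zero cell of its library closest in depth, within 10%, which gave 209 pairs in WT and 101 in VISTA-KO. In these pairs the median number of detected genes was 2125 in members and 2162 in controls in WT, and 2101 and 2084 in VISTA-KO. Median mitochondrial RNA was 0.875% and 0.862% in WT and 0.841% and 0.892% in VISTA-KO, so members and controls lay close in both. Cells with 2 or more beta chains, which can be doublets, made up 3.81% of WT and 7.92% of VISTA-KO members, and 3.35% and 7.92% of the controls.

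Vsir was measured in both libraries at like levels. It stood at 113 CPM in WT members and 154 CPM in VISTA-KO members, against 123 and 137 CPM in their controls. Reads from the 5′ end may lie outside the deleted exons, which are not given in the sources used here, so the level is no check of the deletion or of the genotype labels.

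Of the CD8 T cells, 4.71% (4.11 to 5.37) were heat-shock-high in the WT library. The VISTA-KO share was 2.87% (2.34 to 3.48), and WT over VISTA-KO gave 1.64. The order depended on the threshold. At 20 or more UMIs the shares were 1.70% and 1.22%, and at 30 or more, a limit chosen after the values were seen, they were 0.762% (0.528 to 1.06) and 0.909% (0.623 to 1.28), where WT was no longer higher. When each cell was thinned to 2000 UMIs and at least 4 UMIs of the pair were asked for, the shares were 4.64% and 2.88%. Cells under 2000 UMIs, 232 in WT and 147 in VISTA-KO, were left out of this. The same order between the libraries was seen in most other kinds of sorted cells. Among CD4 T cells without Foxp3 the share was 11.6% (9.72 to 13.7) in WT, 123 of 1062 cells, and 5.73% (4.80 to 6.78) in VISTA-KO, 127 of 2218 cells. Foxp3-positive CD4 T cells, the regulatory T cells, gave 5.74% (4.03 to 7.89) and 3.17% (2.06 to 4.65). The CD8 cells left out for Mki67 or Top2a gave 9.53% and 5.86%, but after thinning 3.28% and 3.43%, where the order no longer held. Cells with Siglech, a marker of plasmacytoid dendritic cells, and no Cd3e gave 2.05% (0.426 to 5.89), 3 of 146 cells, and 0.971% (0.0246 to 5.29), 1 of 103 cells. The share with any UMI of the pair after thinning was 17.1% in WT and 11.4% in VISTA-KO for the CD8 T cells, and 12.3% and 4.90% for the Siglech cells, whose median depths were 8300.5 and 8712 UMIs against 4488.5 and 4895. With 1 pool per genotype, the genotype and the preparation of a pool cannot be told apart as the origin of this order.

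**Figure D1:**
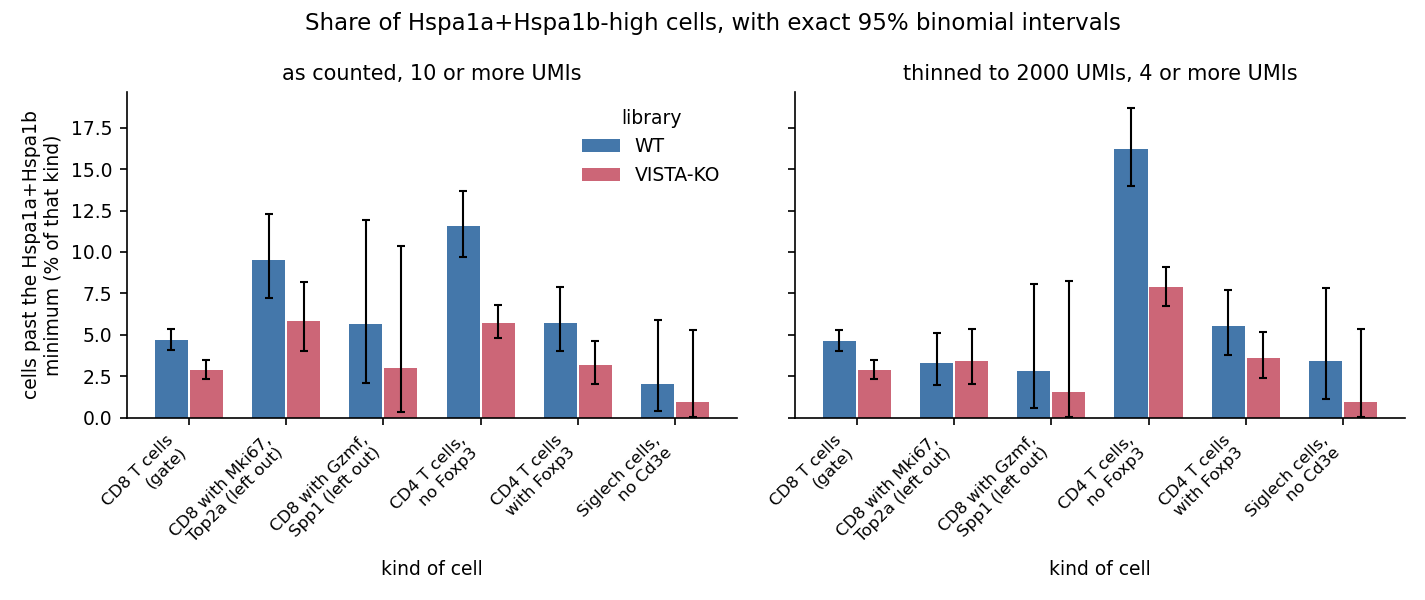
Share of cells past the minimum of Hspa1a plus Hspa1b UMIs (percent of that kind, vertical axis) in each kind of cell, with 1 bar per library and exact 95% intervals for counting error, as counted (left, 10 or more UMIs) and after thinning (right, 4 or more). As counted WT lies above VISTA-KO in every kind, 4.71% against 2.87% in the CD8 T cells described here, and after thinning in every kind but the dividing CD8 cells, with 3.28% against 3.43%.

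A part of the chaperone system was higher together with Hspa1a and Hspa1b. Among the genes found in most members it was led by Dnajb1, Hsph1 and Hsp90aa1. Hspb1, found in few cells, had larger log2 ratios, 3.72 in WT and 4.64 in VISTA-KO. Of the 33 other genes on the heat shock list, 29 reached 20 CPM in at least 1 of the 4 sums of cells, the condition for being compared. Of these, 12 were at least 1.5-fold higher in the members of both libraries and 0 were lower in both, where 1.18% of all 6520 genes compared were higher in both and 0.475% lower. A gene under 20 CPM in the controls of both libraries was compared only because of its level in members, and could not be called lower. Among the 12 these were Hspb1, Bag3 and Zfand2a. The count was 6 against controls with 1 to 3 UMIs of the pair, and also 6 when members needed only 5 UMIs. In WT alone 12 of the 29 passed that fold (3.25% of all genes), and in VISTA-KO alone 18 (7.79% of all genes). Log2 ratios and the 1.5-fold limit are of summed CPM after 5 CPM is added to each, whereas ratios printed with an interval are of the CPM as they stand. The median log2 ratio of the list was 0.36 in WT and 0.86 in VISTA-KO, against -0.03 and -0.01 over all genes compared. Summed over the list without Hspa1a and Hspa1b, the level was 12581 CPM in WT members and 7576 CPM in their controls, and 17295 and 7522 CPM in VISTA-KO. The VISTA-KO sums rest on fewer cells, and more genes of any kind passed the fold there.

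Among the J-domain proteins and exchange factors, Dnajb1 and Hsph1 differed most, and both were found in most members. Dnajb1 stood at 783 CPM in WT members and 129 CPM in controls, a ratio of 6.08 (5.20 to 7.13). VISTA-KO members held 1432 CPM and their controls 134 CPM, a ratio of 10.7 (8.62 to 13.4). The controls of the libraries lay close together while the members lay far above them. Hsph1, the HSP110 that recharges HSP70, stood at 383 and 79.3 CPM in WT and at 631 and 94.2 CPM in VISTA-KO. Dnaja1, an HSP40 that works with Hspa8, stood at 434 and 279 CPM in WT and at 924 and 310.4 CPM in VISTA-KO. Dnaja4, another HSP40 found in fewer members, stood at 37.8 and 20.7 CPM and at 96.6 and 33.8 CPM. The differences were also present cell by cell. Per 10000 UMIs of a cell, Dnajb1 ran from 0 to 86.0 in WT members with a median of 5.03, and from 0 to 10.8 in controls with a median of 1.16. In VISTA-KO it ran from 0 to 148 with a median of 8.42, and from 0 to 10.1 with a median of 0.781. The cells overlapped at the low end, and values above 10.8 were found in members only. After thinning to 2000 UMIs, Dnajb1 was detected in 62.9% (55.9 to 69.6) of WT members and 26.3% (20.5 to 32.9) of controls, against 17.8% of Siglech cells. In VISTA-KO the shares were 75.8% and 31.3%, against 27.5% (19.1 to 37.2) of Siglech cells, so the controls there lay near the Siglech cells. Whether Siglech cells made this RNA themselves was not tested. Before thinning they were 87.1% and 56.9% in WT and 94.1% and 52.5% in VISTA-KO.

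**Figure D2:**
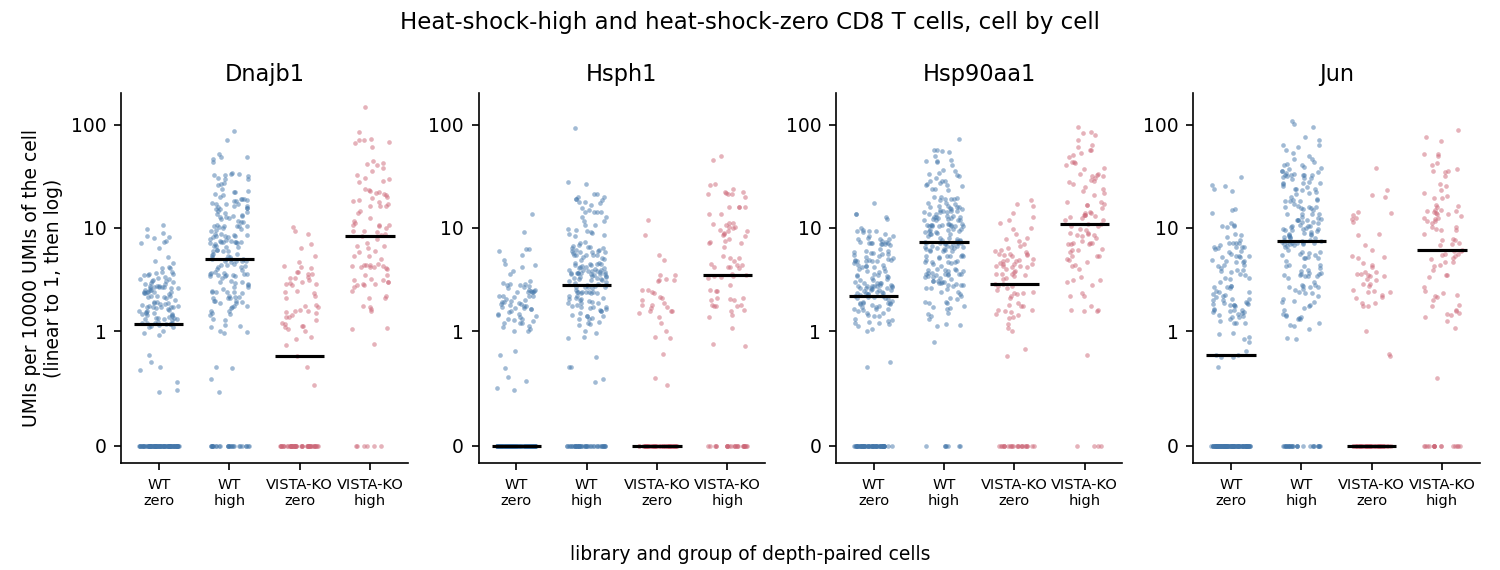
Levels per cell of Dnajb1, Hsph1, Hsp90aa1 and Jun (UMIs per 10000 UMIs of the cell, vertical axis, linear to 1 and logarithmic above) in heat-shock-high cells and depth-matched heat-shock-zero cells of each library, with 1 point per cell and a line at the median. The median of Dnajb1 is 5.03 against 1.16 in WT and 8.42 against 0.781 in VISTA-KO, and the cells of the groups overlap near 0.

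The HSP90 system followed. Hsp90aa1, the inducible HSP90, stood at 1048 CPM in WT members and 301 CPM in controls, a ratio of 3.49 (3.13 to 3.89). The VISTA-KO values were 1757 and 359 CPM, with a ratio of 4.90 (4.26 to 5.64). Hsp90ab1, the constitutive form, differed less, with 3468 and 2225 CPM in WT and 3899.5 and 2150.9 CPM in VISTA-KO. The same contrast held for Hspa8, the constitutive HSC70, with 3724 and 2426 CPM in WT and 4356 and 2266 CPM in VISTA-KO. Of the HSP90 co-chaperones, Ahsa1, which speeds its ATP cycle, had log2 ratios of 0.28 and 0.69, Stip1, which bridges HSP70 and HSP90, 0.36 and 0.45, Ptges3 0.11 and 0.46, and Fkbp4 -0.09 and 0.54. None of these 4 passed 1.5-fold in both libraries.

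The mitochondrial chaperonin pair Hspe1 (HSP10) and Hspd1 (HSP60), transcribed from a shared start region, differed between the libraries in size. Hspe1 stood at 421 CPM in WT members and 252 CPM in controls, and at 985 and 263 CPM in VISTA-KO. Hspd1 stood at 246 and 171 CPM in WT, short of 1.5-fold, and at 534 and 163 CPM in VISTA-KO. Smaller members of the response were higher as well. Bag3, which couples HSP70 to autophagy, stood at 46.7 and 11.7 CPM in WT and at 84.9 and 11.8 CPM in VISTA-KO. Zfand2a (AIRAP), an inducible proteasome partner, stood at 22.0 and 6.21 CPM and at 24.9 and 11.8 CPM, and Cacybp at 190.4 and 117 CPM and at 250.4 and 131 CPM. Hspb1 (HSP27), a small heat shock protein, stood apart in being confined to few cells. It was detected in 10 WT and 10 VISTA-KO members, where the 5 highest cells held 95.1% and 93.8% of its UMIs, so its ratio of 70.1 to 0.689 CPM in WT and 376 to 10.3 CPM in VISTA-KO describes a handful of cells.

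The rest of the list stayed under the fold in 1 or both libraries. Dnajb4, Hspa4l, Ahsa2 and St13 passed 1.5-fold in VISTA-KO only, together with Hspd1 and Ahsa1. Hsf1 itself stood at 40.5 CPM in WT members and 52.4 CPM in controls and at 38.1 and 48.5 CPM in VISTA-KO, with log2 ratios of -0.33 and -0.31. Hsbp1, Hspa4, Dnaja2, Dnajb6, Dedd2, Chordc1 and Ier5 also stayed under 1.5-fold in both. Hsf2, Serpinh1 and Cryab did not reach 20 CPM, and Hspb8 was at 0 UMIs in all members. The TRiC chaperonin and prefoldin, which fold newly made actin and tubulin and are not part of the inducible response, gave 0 of 14 genes higher in both and medians of 0.05 and -0.10. Translation factors gave 0 of 17, with medians of 0.02 and -0.03, and the 84 ribosomal protein genes had medians of -0.03 and -0.04. Of the 12 heat shock genes higher in both libraries, which leaves out Hspa1a and Hspa1b since the rule chose them, 9 had a promoter entry and 6 of those (66.7%) held the motif shown above, all but Dnajb1, Bag3 and Cacybp. Of the 15 heat shock genes with an entry that were compared but not higher in both, 4 (26.7%) held it. Of the 44 other genes higher in both libraries with an entry, 4 (9.09%) held it, and of all compared genes with an entry 12.0%.

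**Figure D3:**
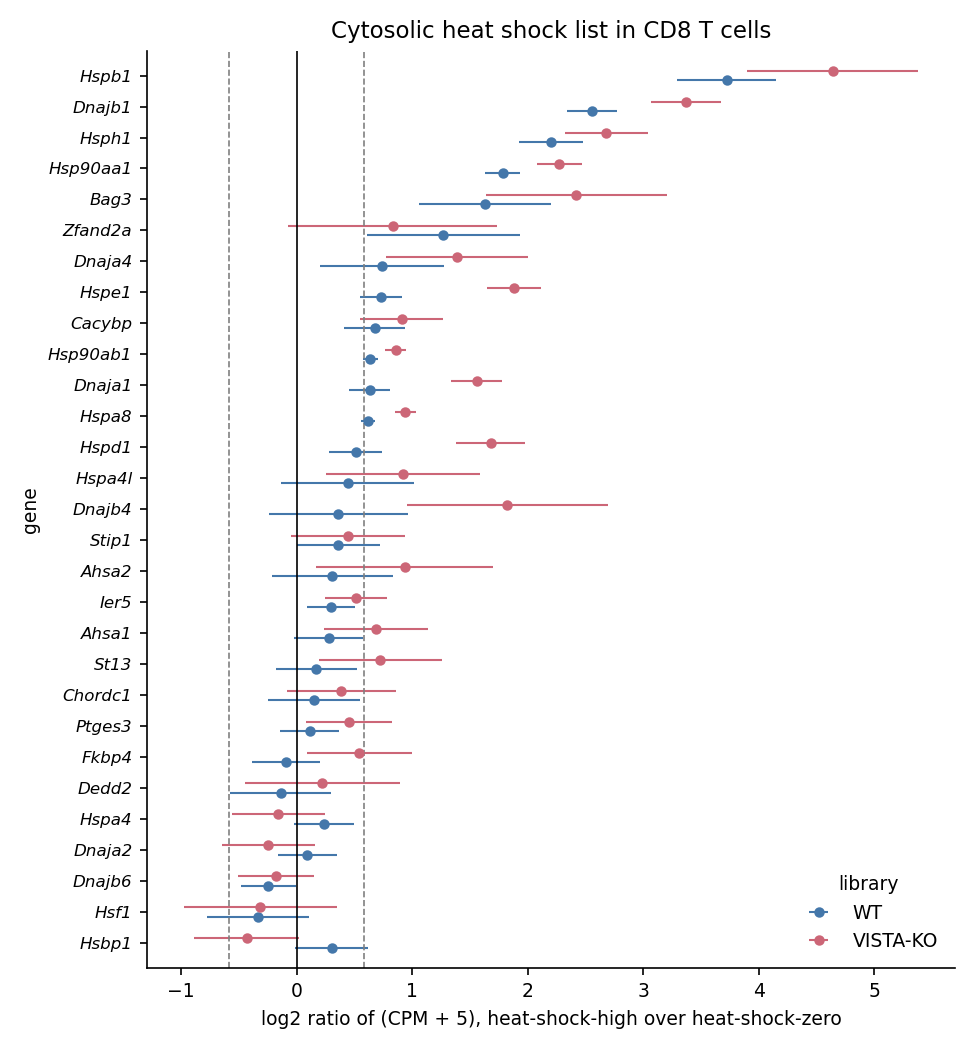
Log2 ratio of heat-shock-high over depth-matched heat-shock-zero cells (horizontal axis) for the compared genes of the heat shock list, with 1 point per library and 95% intervals for counting error. Dashed lines mark 1.5-fold. Dnajb1 lies at 2.56 in WT and 3.37 in VISTA-KO, and Hsf1 at -0.33 and -0.31.

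Dnajb1, Hsp90aa1 and the list as a sum were higher with each step of HSP70 UMIs, also below the threshold. Dnajb1 stood at 150 CPM in all WT CD8 T cells with 0 UMIs of the pair, 259 CPM with 1 to 3, 454 CPM with 4 to 9, 713 CPM (667 to 762) with 10 to 29 and 1059.7 CPM (935 to 1196) with 30 or more. In VISTA-KO the levels were 169.6, 390.4, 585, 892 and 2544 CPM. Each step was higher than the one before it in both libraries. Other genes did not follow each step. Dnaja1 in WT stood at 343, 347 and 351 CPM with 1 to 3, 4 to 9 and 10 to 29 UMIs, and Hspb1 in WT stood under 2 CPM up to 9 UMIs and then at 75.3 and 36.5 CPM. The list without Hspa1a and Hspa1b summed to 7100.2, 8637, 9403, 11509 and 17625 CPM in WT, and to 7231, 9222, 11013, 12139 and 27908 CPM in VISTA-KO. Chaperonin and prefoldin genes summed to 2494 CPM in the lowest and 2814 CPM in the highest class of WT, and to 2487 and 2669 CPM in those of VISTA-KO. Tcf7, the transcription factor TCF1 of stem-like and memory T cells, was lower in the highest class than in the lowest. It stood at 178 and then 69.0 CPM in WT and at 171 and then 22.4 CPM in VISTA-KO, where the highest classes held 17 and 5 of its UMIs. In VISTA-KO it was first higher, at 214 CPM with 1 to 3 UMIs of the pair. The highest class held 34 WT and 32 VISTA-KO cells, and Hspb1 in VISTA-KO stood at 1151 CPM there against 0 UMIs in the 69 members with 10 to 29. Median depth was also higher in the upper classes, 4364 UMIs with 0 and 5855.5 with 10 to 29 for WT cells, 4866 and 5784 for VISTA-KO cells, and its part in these steps was not tested beyond the matched pairs above.

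**Figure D4:**
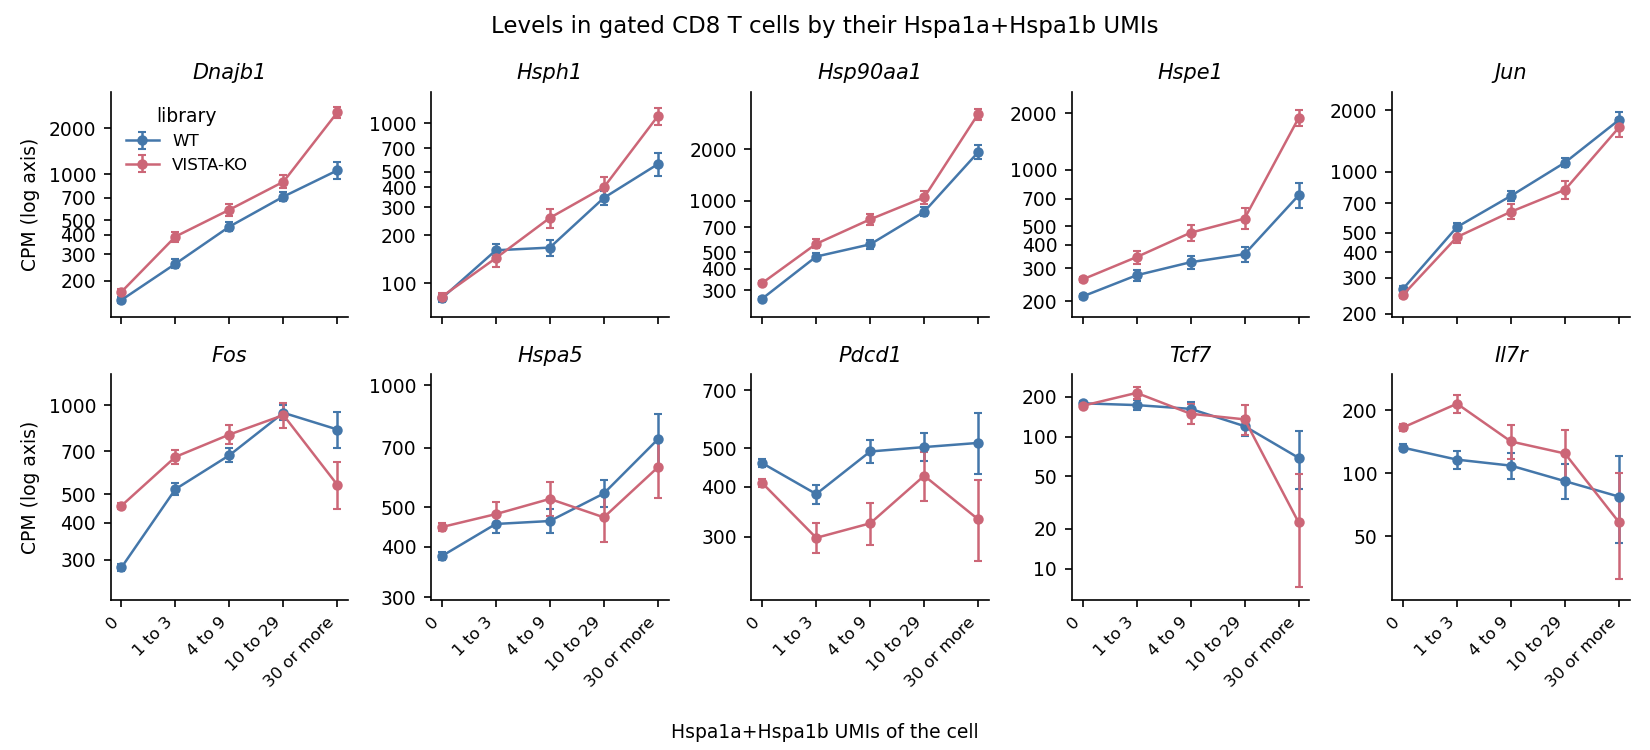
Levels of 10 genes (CPM, vertical axis, log scale) in CD8 T cells grouped by their Hspa1a plus Hspa1b UMIs (horizontal axis), with 1 line per library and exact 95% Poisson intervals. Dnajb1 goes from 150.03 to 1059.7 CPM in the WT cells and from 169.6 to 2544 CPM in the VISTA-KO cells, Fos is lower in the highest class than in the one before it, and Tcf7 ends at 69.0 and 22.4 CPM.

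Some immediate-early genes were higher beside the chaperones. Of 28 immediate-early genes compared, 6 were at least 1.5-fold higher in both libraries, namely Jun, Fos, Fosb, Atf3, Klf6 and Zfp36, and 0 were lower, with list medians of 0.27 and 0.14. Jun stood at 1225 CPM in WT members and 241 CPM in controls, a ratio of 5.07 (4.52 to 5.71). VISTA-KO members held 1087 CPM and their controls 272 CPM, a ratio of 3.99 (3.39 to 4.72). Members of both libraries lay far above both sets of controls. Fos stood at 915 and 234 CPM in WT and at 799.5 and 319 CPM in VISTA-KO. Unlike Jun, it did not climb through the highest class of HSP70 UMIs, where WT cells held 828 CPM against 944 CPM in the class below and VISTA-KO cells 537 against 927 CPM. Zfp36, which destabilizes cytokine messages, stood at 711 and 348 CPM in WT and at 761 and 502 CPM in VISTA-KO. Atf3 was detected in 13 and 8 members only. The most abundant genes of the list did not pass the fold in both. Junb had log2 ratios of 0.46 and 0.16, Jund 0.54 and 0.34, Btg1 -0.26 and -0.11, and Dusp2, a nuclear MAP kinase phosphatase, -0.43 and -0.29. In pairs of the same clonotype, 4 of 26 immediate-early genes were higher in both and 2 lower, and the list medians were -0.17 in WT and 0.30 in VISTA-KO. After thinning, Jun was detected in 68.3% of WT members and 30.2% of controls, but also in 54.1% of Siglech cells. In VISTA-KO the shares were 65.7% of members, 33.3% of controls and 61.8% (51.6 to 71.2) of Siglech cells, so that members and Siglech cells lay close.

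Of 30 genes on the ubiquitin and proteasome list, 2 were higher in both libraries and 0 lower, with list medians of 0.01 and -0.06. Ubb, which encodes polyubiquitin, was 1 of them. WT members held 4701.5 CPM of it and their controls 2903 CPM, and the VISTA-KO values were 5715 and 3215 CPM. Of 21 genes of the endoplasmic reticulum stress response, only Ppp1r15a (GADD34) passed, with 345 and 191 CPM in WT and 341 and 187 CPM in VISTA-KO. Hspa5 (BiP), the chaperone of that compartment, had log2 ratios of 0.47 and 0.18, Ddit3 (CHOP) 0.53 and 0.80, and the list medians were 0.20 and 0.11. Of 15 oxidative stress genes only Mt1, a metal-binding metallothionein, was higher in both. It stood at 109 and 22.1 CPM in WT and at 212 and 42.7 CPM in VISTA-KO, but was detected in 36 and 17 members, and the list medians were 0.07 and 0.22. Of 20 apoptosis genes 0 were higher or lower in both, with medians of 0.01 and 0.00.

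Outside the lists, the highest genes by the smaller of the 2 ratios included Phlda1 and Gm10501. Phlda1, a stress- and receptor-induced gene, stood at 131 and 30.3 CPM in WT and at 229.9 and 57.4 CPM in VISTA-KO. Gm10501, a predicted gene that is not in the RefSeq table, stood at 53.6 and 1.38 CPM and at 86.4 and 1.47 CPM, and was detected in 53 WT and 34 VISTA-KO members against 1 control cell each. With controls under 20 CPM in both libraries, it was compared only because of its level in members, and could not be called lower. Its log2 ratios were 3.19 and 3.74 without cells with myeloid or class II RNA and 3.79 and 4.41 in pairs of the same clonotype. What it encodes is not given in the sources used here. Of the 77 genes higher in both libraries, 33 were on a list and 44 on none.

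The lists of T cell state held few genes past 1.5-fold in both libraries, where 1.18% of all genes compared were higher in both and 0.475% lower. Of 23 genes of inhibitory receptors and exhaustion, Cd200 was higher and Tnfrsf9 lower in both, with medians of 0.17 and 0.10. Cd200 was detected in only 4 members and 1 control in VISTA-KO, and no gene of the list was higher in both without cells with myeloid or class II RNA or in pairs of the same clonotype. Cd200 also lay under 20 CPM in the controls of both libraries, and so could not be called lower. Pdcd1 (PD-1) stood at 507 CPM in WT members and 457 CPM in controls and at 395 and 431 CPM in VISTA-KO. Tnfrsf9 (4-1BB), a costimulatory receptor of recently activated cells, stood at 135 and 235 CPM and at 101 and 199 CPM, but was detected in 64 WT members and 63 controls, and in 25 and 27 in VISTA-KO. Its log2 ratio changed sign to 0.31 in VISTA-KO when at least 20 UMIs of the pair were asked for, to 0.17 in WT against all heat-shock-zero cells and to 0.19 in VISTA-KO against controls with 1 to 3 UMIs. Of 19 naive and memory genes, Id3 and Klf2 were higher in both and 0 lower, whereas 15 of the 19 had negative ratios in both libraries and the medians were -0.29 and -0.42. In pairs of the same clonotype the medians were 0.01 in WT and -0.19 in VISTA-KO. Without cells with myeloid or class II RNA, 1 gene of this list was higher in both and 1 lower. Klf2, which holds T cells in circulation, stood at 550.5 and 358 CPM in WT and at 873 and 538 CPM in VISTA-KO. Its WT log2 ratio was 0.56, short of the fold, without cells with myeloid or class II RNA, and its VISTA-KO ratio was -0.44 when at least 20 UMIs of the pair were asked for. Id3 was detected in 6 members and 6 controls in VISTA-KO. Of 19 cytotoxic and cytokine genes, only Tnf was higher in both, with 88.7 and 30.3 CPM in WT and 82.0 and 42.7 CPM in VISTA-KO, and the medians were -0.14 and -0.31. In pairs of the same clonotype 0 of 18 genes of this list were higher in both. Gzmb (granzyme B) stood at 527 and 809 CPM in WT and at 1299 and 1810 CPM in VISTA-KO, and Ccl4 at 1282 and 1493 CPM and at 1535 and 3272 CPM. Neither passed in both. The receptor complex gave 0 of 18 with medians of -0.10 and -0.13, and glycolysis and hypoxia 0 of 18 with medians of -0.12 and -0.19. At any size, 11 receptor complex genes had negative ratios in both libraries and 0 positive ones. For glycolysis and hypoxia 12 genes were negative in both and 1 positive. Both libraries had some negative medians among these lists, but single members that passed the fold in both were rare.

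Interferon-stimulated genes had ratios of opposite sign in the libraries against depth-matched controls, but not against controls of the same clonotype. Of 18 compared, 9 were at least 1.5-fold higher in WT members and 0 lower, whereas 0 were higher and 8 lower in VISTA-KO members (2.68% of all genes were lower in WT and 7.45% in VISTA-KO). The medians were 0.59 and -0.44, and in pairs of the same clonotype -0.34 and -0.11. Against controls with 1 to 3 UMIs of the HSP70 pair they were 0.06 and -0.33. Isg15, a ubiquitin-like modifier, stood at 282 CPM in WT members and 68.9 CPM in controls, and at 176 and 287 CPM in VISTA-KO. The controls differed more than the members. Summed over the list the matched WT controls held 2344 CPM and the VISTA-KO controls 3769 CPM, against 2719.8 and 3411 CPM in all heat-shock-zero cells.

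RNA of other cell types was present in few members. Of 13 myeloid genes 9 were compared and 5 were higher in both, namely Lyz2, C1qa, C1qb, Apoe and Fcer1g. Lyz2, C1qa, C1qb and Apoe lay under the CPM level needed for being compared in the controls of both libraries. These genes were therefore compared only because of their level in members, and could not be called lower. The myeloid list summed to 1214 CPM in WT members and 527 CPM in controls and to 492 and 315 CPM in VISTA-KO. Cst3 was its most abundant gene and Adgre1 stood at 0. The MHC class II genes H2-Aa, H2-Ab1 and H2-Eb1 were among the 15 highest genes, Cd74 passed the fold in both as well, and H2-Aa was detected in 14 WT and 3 VISTA-KO members. Cells with 2 or more UMIs of C1qa, C1qb, C1qc, Lyz2 and Apoe together, or 3 or more of the class II genes, numbered 14 of 210 WT and 4 of 101 VISTA-KO members and 9 and 2 of their controls. Without them, 196 and 97 pairs remained, 0 of 4 myeloid genes was higher in both, and H2-Aa had log2 ratios of 0.27 and -0.00. The heat shock genes kept their differences, with Dnajb1 at 2.63 and 3.43 and 61 genes higher in both, 50 of them among the 77. Cxcl16 and Tgfbi, also among those 15, rested on 3 and 7 WT members. Both lay under 20 CPM in the controls of both libraries, and could not be called lower.

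For other cell types, 6 marker lists were summed. Melanoma genes summed to 2.06 CPM in WT members and 4.39 CPM in VISTA-KO members, against 5.52 and 1.47 CPM in controls, with Pmel the most abundant, Tyrp1, Tyr and Sox10 at 0 and 0 of 7 compared. B cell genes summed to 145 and 43.9 CPM, against 129 and 79.4 CPM in controls, mostly Ighm, with Pax5, Ebf1 and Ms4a1 among the genes at 0 and 1 of 7 compared. NK cell genes had 3 of 7 compared, sums of 513 and 425 CPM against 463 and 353 CPM, Klrd1 the most abundant and Ncr1 at 0. The plasmacytoid list summed to 338 and 183 CPM against 268 and 246 CPM, mostly Bst2, with 3 of 6 compared. Regulatory and CD4 genes summed to 148 and 145 CPM against 169.6 and 115 CPM, with 4 of 7 compared, Tnfrsf4 the most abundant and Cd4 and Foxp3 at 0 by the rule. Gamma-delta genes summed to 47.4 and 52.7 CPM against 23.4 and 63.3 CPM, with 1 of 7 compared, Tcrg-C2 the most abundant and Sox13 and Il23r at 0. In none of these 6 lists was any gene higher or lower in both libraries, and the part of such cells in the other results was not tested beyond the values without the myeloid and class II cells.

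Against the depth-matched controls, 31 genes were lower and 77 higher in both libraries. This order turned in pairs of the same clonotype, with 241 lower and 144 higher. At 20 or more UMIs the counts were nearly equal, with 187 lower and 188 higher. Of the 31 lower genes, 2 were also lower in the same-clonotype pairs. The 31 held 1 gene of any list, Tnfrsf9. The lowest by rank were Il17a and Penk, whose controls owed them to few cells. Of the 95 UMIs of Il17a in VISTA-KO controls 93 lay in 1 cell, and of the 75 UMIs of Penk 74 did. The next were Cd163l1, Fkbp5, Eno3, Fcgrt, Ski, Fuz, Ntpcr, Rflnb, Styx, Tgds, Ppp2r5d and Plin3. Like Il17a and Penk, all of these lay under 20 CPM in the members of both libraries. They were therefore compared only because of their level in controls, and could not be called higher. Fkbp5, a glucocorticoid-induced co-chaperone of HSP90, stood at 9.62 and 26.2 CPM in WT and at 2.93 and 11.8 CPM in VISTA-KO, with 2 members and 7 controls in the latter.

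Within the members, several chaperones stood higher in VISTA-KO than in WT. Over the list without Hspa1a and Hspa1b, the VISTA-KO level exceeded the WT level by a median of 0.36 on the log2 scale. Of all 6155 genes compared between the members of the libraries, 4.84% were at least 1.5-fold higher and 6.42% lower in VISTA-KO. Hspe1 was higher by 1.23, Hspd1 by 1.11, Dnaja1 by 1.09 and Dnajb1 by 0.89 on the log2 scale, where the matched heat-shock-zero cells gave 0.06, -0.06, 0.15 and 0.05. A larger share of the VISTA-KO members had 30 or more UMIs of the pair, as given above. Among members with 10 to 29 UMIs only, the WT cells held 356 CPM (324 to 391) of Hspe1 and the VISTA-KO cells 550.5 CPM (485 to 623), with 213 and 302 CPM of Hspd1 and 351 and 568 CPM of Dnaja1. Dnajb1 differed less in this class, with 713 and 892 CPM, and Hspa8, with 3472 and 3447 CPM, and Hsp90ab1, with 3174 and 2909 CPM, were not higher in VISTA-KO. The list without Hspa1a and Hspa1b summed there to 11509 and 12139 CPM, against 12581 and 17295 CPM over all matched members, so the libraries lay closer in this class than over all members. Many of the 10 highest and 10 lowest genes were receptor segments or were detected in few cells, such as Mmp12 in 1 VISTA-KO member and Fscn1 in 1 WT member. The highest were Mmp12, Trav1, Ccl6, Trav19, Hspb1, Trav2, Trbv14, C3ar1, Trav12-2 and Irf4, and the lowest Trav14-2, Fscn1, Trav14-3, Gm42031, Trav7-3, Il1r2, Ly6d, Ifitm3, Trbv20 and Cd74. Irf4, a transcription factor induced by receptor signals, stood at 16.5 CPM in matched WT members and 70.3 CPM in VISTA-KO, and was detected in 17 and 26 of them. Its controls stood at 11.7 and 39.7 CPM, so the order was the same there.

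The members were spread over many T cell clones. Cells were taken as 1 clonotype when they shared the V genes and junction nucleotides of both receptor chains. Both chains were found in 69.5% (62.8 to 75.7) of WT members and 77.2% (67.8 to 85.0) of VISTA-KO members, against 80.5% and 81.7% of all heat-shock-zero cells. In WT the 146 matched members with a clonotype held 81 distinct ones, and 159 controls held 88. In VISTA-KO 78 members held 60, and 81 controls held 64. The heat-shock-high state therefore did not belong to 1 clone in either library. The junctions of the 2 largest clonotypes of each library are shown, since these gave the counts that follow. They come from the deposited receptor contigs of the sorted mouse cells, run 5′ to 3′, and capitals mark the codons of the conserved cysteine and phenylalanine at the ends.
WT clonotype 1 alpha (TRAV10N, TRAJ9): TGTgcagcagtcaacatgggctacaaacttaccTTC
WT clonotype 1 beta (TRBV12-2, TRBJ2-7): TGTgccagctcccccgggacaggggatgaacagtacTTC
WT clonotype 2 alpha (TRAV14-2, TRAJ26): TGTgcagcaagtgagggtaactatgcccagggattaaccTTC
WT clonotype 2 beta (TRBV10, TRBJ2-4): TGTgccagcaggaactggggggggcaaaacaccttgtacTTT
VISTA-KO clonotype 1 alpha (TRAV16N, TRAJ17): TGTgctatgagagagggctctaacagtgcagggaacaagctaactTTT
VISTA-KO clonotype 1 beta (TRBV13-1, TRBJ2-7): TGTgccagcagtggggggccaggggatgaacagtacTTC
VISTA-KO clonotype 2 alpha (TRAV12D-3, TRAJ45): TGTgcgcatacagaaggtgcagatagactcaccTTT
VISTA-KO clonotype 2 beta (TRBV13-1, TRBJ2-7): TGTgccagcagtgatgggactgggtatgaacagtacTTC
The largest clones of the WT library differed in their share of members. Clonotype 1 of WT held 965 CD8 T cells, of which 18 were heat-shock-high, 1.87% (1.11 to 2.93). Clonotype 2 of WT held 267, of which 24 were, 8.99% (5.84 to 13.1). Their cells had median depths of 4642 and 4892 UMIs, and thinning gave 1.62% and 11.8%. Clonotype 1 made up 12.3% of the WT members with a clonotype, and in the matched controls the largest clonotype made up 30.2%. Trav14-2, the alpha segment of clonotype 2, was among the genes higher in both libraries, at 262.5 and 94.5 CPM in WT, but in VISTA-KO it was detected in 2 members and 1 control. Pdcd1 stood at 384 CPM in the cells of clonotype 1 and 1005 CPM in those of clonotype 2. Of the next 3 WT clonotypes, those of 70 and 45 cells had 0 members, which allows shares of up to 4.29% and 6.67% when 3 counts are taken as the limit, with exact upper bounds of 5.13% and 7.87%. That of 55 cells had 2. After thinning, 2 of 63 cells of the clonotype with 70 cells counted as high. In VISTA-KO, clonotype 1 held 215 cells with 9 members, 4.19% (1.93 to 7.80), and clonotype 2 held 97 cells with 6 members, 6.19% (2.30 to 13.0), and their intervals overlap. The next 3, of 39, 37 and 30 cells, had 0, 1 and 1 members, where 0 of 39 allows a share of up to 7.69% by the 3 counts, with an exact upper bound of 9.03%.

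**Figure D5:**
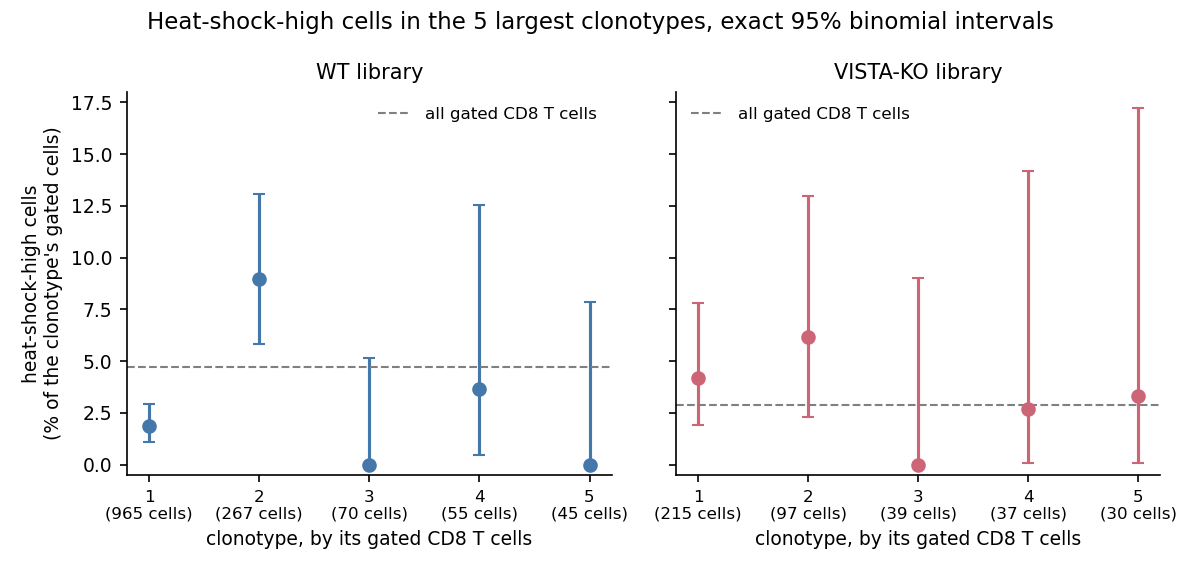
Share of heat-shock-high cells (percent, vertical axis) among the CD8 T cells of the 5 largest clonotypes of each library, with exact 95% intervals for counting error and a dashed line at the share of all CD8 T cells. In WT clonotype 1 lies at 1.87% and clonotype 2 at 8.99% with intervals apart, and in VISTA-KO clonotypes 1 and 2 lie at 4.19% and 6.19% with overlapping intervals.

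Clone size did not order the shares in the same way in both libraries. In WT they were 3.58% among cells whose clonotype was seen in 1 cell, 5.93% with 2 to 9 cells, 4.34% with 10 to 99 and 3.41% with 100 or more. In VISTA-KO they were 2.67%, 2.26%, 2.43% and 4.81%. Among WT cells with no paired chains 6.99% (5.43 to 8.84) were members, and among such VISTA-KO cells 3.48% (2.22 to 5.18). When each member was instead paired with a heat-shock-zero cell of its own clonotype, 82 WT and 34 VISTA-KO pairs could be made. Within clones, Dnajb1 had log2 ratios of 1.90 and 3.86, Hsph1 2.56 and 3.28, Hsp90aa1 1.71 and 2.81, and Jun 2.10 and 4.11, so cells with the same receptor differed in the heat shock response.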

How the data were processed

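Tumor-infiltrating CD4 and CD8 T cells of 1 WT and 1 VISTA-KO pool were profiled with a droplet kit for gene expression and receptor sequencing (5′ by the methods, 3′ by the labels). The authors ran Cell Ranger 5.0.0 on the GRCm38 reference and deposited unnormalized UMI counts for each called cell, together with receptor contigs and their UMI counts. Reads of near-identical genes may be lost, and the pooled mice cannot be separated.

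UMIs of members and of heat-shock-zero cells paired 1 to 1 on depth within 10% were summed per library and given as CPM. Genes at 20 CPM or more in 1 of the 4 sums were compared as log2((CPM + 5)/(CPM + 5)), and a gene was called when it differed by at least 1.5-fold the same way in both libraries. With 1 library per genotype there was no test. Intervals (95%) of levels are exact Poisson intervals and those of shares exact Clopper-Pearson intervals. The counting error of log2 ratios was approximated. Shares were repeated with cells thinned to 2000 UMIs. No doublet caller was run. The steps were checked on simulated data. Python 3.11.15, numpy 2.4.6, pandas 2.3.3 and scipy 1.17.1 were used.

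The members and all gene lists were chosen with earlier results of these data known. The genes named are the heat shock list, the highest and lowest 15 by the smaller of both ratios without receptor segments, the highest and lowest 10 between the libraries, the 4 most abundant members of each other list, Vsir and the 5 largest clonotypes of each library. Other genes, such as Ddit3, Isg15, Tnf, Id3, Cd200 and Trav14-2, were named after their values were seen. Other thresholds, controls, filters and pseudocounts were tried, as were pairs within clonotypes. The 13 mitochondrial genome genes had medians of -0.00 and -0.17. No genome was used here, and the promoter sequences are those of the RefSeq table. Values of some genes are not reported here.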

Additional observations from a re-analysis of the deposited data

Results flagged for a closer look

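The interferon list is given again because its median log2 ratio of heat-shock-high over heat-shock-zero cells had opposite signs in the libraries, 0.59 in WT and -0.44 in VISTA-KO. The difference between the libraries was not tested, since each genotype was 1 pool. Of the 18 genes all were above 0 in WT and 5 in VISTA-KO. Against all heat-shock-zero cells the medians were 0.33 and -0.32, against cells with 1 to 3 UMIs of the HSP70 pair 0.06 and -0.33, and without cells with myeloid or MHC class II RNA 0.52 and -0.49. In pairs of the same clonotype they were -0.34 and -0.11, where the sign was the same in both libraries.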

How the results depend on the processing

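No paired analysis was possible because each genotype was 1 library and the labels give no replicate numbers. Of 157 values that answer a comparison, 121 stayed within counting error for shares, within 1.5 times for counts or within 0.2 on the log2 scale for list medians, and 36 did not. Of 4938 log2 ratios of single named genes 367 changed sign at any size. Of these, 44 were of genes past 1.5-fold the same way in both libraries, or of the genes named between the libraries. Of 644 medians of other lists 73 changed sign at any size, and 7 did so between values at least 0.2 from 0. Removing cells with myeloid or MHC class II RNA and removing barcodes shared by the libraries were alternatives chosen after seeing the data. The threshold on the HSP70 pair set the share by construction. With at least 20 UMIs it was 1.70% in WT and 1.22% in VISTA-KO, and with at least 5 it was 8.99% and 5.71%. WT clonotype 1 gave 1.04% at 20 UMIs, and clonotype 2 gave 3.37% at 20 and 17.2% at 5. The WT share was 5.49% without the largest clonotype and 4.08% when at least 0.2% of a cell's UMIs was asked for in place of a count.

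Genes higher in both libraries numbered 188 at 20 UMIs, 43 at 5, 44 against controls with 1 to 3 UMIs, 144 in pairs of the same clonotype, 42 with a filter of 50 CPM and 149 with no filter. Genes lower in both numbered 187 at 20 UMIs, 10 at 5, 12 with Gzmf, Spp1 and dividing cells kept, 241 in same-clonotype pairs, 56 by mean per cell, 51 with a pseudocount of 1, 5 at 50 CPM and 70 with no filter. Of the 31 lower genes 2 were shared with the same-clonotype pairs, against 30 of the 77 higher genes. The heat shock median was 0.77 in WT at 20 UMIs and 1.14 in VISTA-KO in same-clonotype pairs, and 6 heat shock genes were higher in both at 5 UMIs and against controls with 1 to 3. Between the members of the libraries, 756 genes were higher and 990 lower in VISTA-KO at 20 UMIs, 158 and 174 at 5, 101 and 133 at 50 CPM and 703 and 1210 with no filter, and 221 were lower with dividing cells kept. The filter itself set how many genes were compared, 3452 at 50 CPM and 13837 with none.

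The 44 ratios and 7 medians were as follows. At 20 UMIs they were Tnfrsf9 0.31 and Klf2 -0.44 in VISTA-KO. At 5 UMIs they were Penk 0.86 and Cd163l1 0.086 in WT, Styx 0.062 and Plin3 0.17 in VISTA-KO, and Ifitm3 0.18 between the libraries. With dividing cells kept they were the NK list -0.20, Il17a 2.76, Cd163l1 1.77 and Ppp2r5d 0.044 in VISTA-KO and Penk 0.022 in WT. Without cells with C1q, Lyz2 or Apoe they were H2-Ab1 -0.41, H2-Aa -0.78 and Fcer1g -0.082 in VISTA-KO. Without cells with myeloid or class II RNA they were Cxcl16 -0.20, H2-Ab1 -0.47 and Fcer1g -0.22 in WT and H2-Ab1 -0.22, H2-Aa -0.0014 and Fcer1g -0.082 in VISTA-KO. Against all heat-shock-zero cells they were Tnfrsf9 0.17 and Eno3 0.049 in WT. Against controls with 1 to 3 UMIs they were Tgds 0.29 in WT and, in VISTA-KO, the myeloid list -0.30, the NK list -0.48, Penk 0.68, Tnfrsf9 0.19, Ntpcr 0.17, Cxcl16 -0.13, H2-Aa -0.26 and Fcer1g -0.27. In same-clonotype pairs they were, in WT, the interferon list -0.34, the myeloid list -0.27, the plasmacytoid list -0.68, Ski 0.44, Cxcl16 -0.88, Rflnb 0.28 and H2-Ab1 -0.57. In VISTA-KO they were the myeloid list -1.01, Penk 1.60, Ntpcr 0.58, Cxcl16 -1.01, Rflnb 1.60, Tgfbi -1.01, Tgds 0.58, Fkbp5 1.01, H2-Ab1 -0.0066, H2-Aa -1.01, H2-Eb1 -1.60 and Fcer1g -1.01. Among the smaller changes of sign, the myeloid list stood at -0.15 in WT and -0.07 in VISTA-KO without cells with myeloid or class II RNA, and in same-clonotype pairs the immediate-early list stood at -0.17 and the inhibitory list at -0.26 in WT. Apart from shifts fixed by the settings themselves, the cause was not tested.

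The ratios of VISTA-KO rest on 101 members. Among the genes lower in members, Tnfrsf9 changed sign in 1 library under each of 3 settings. Penk, Cd163l1, Ntpcr, Rflnb and Tgds also changed sign more than once, as listed above.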
